A study of Mus musculus with 6 samples.

Results

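The NDRG (N-myc downstream-regulated gene) family was described here in osteoclast precursors given RANKL, the cytokine that drives osteoclast formation, with or without a leaf extract (LE) of Abeliophyllum distichum. Its 4 mouse genes, Ndrg1, Ndrg2, Ndrg3 and Ndrg4, were taken by symbol from the 24940 genes of the table, and each had 1 entry. The family was chosen by measured values, namely those of Ndrg2, which was higher with RANKL and higher again with LE. The values of Ndrg2 in these comparisons are therefore given as a description without a test. The own values of Ndrg1, Ndrg3 and Ndrg4 did not enter that choice.

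The cells were bone marrow-derived macrophages (BMMs), the usual osteoclast precursors, and RNA-seq was performed on 2 libraries per condition, or 6 in all. All were kept for 3 days with 30 ng/mL M-CSF. The -R cultures had M-CSF only, the +R cultures also received 100 ng/mL RANKL, and the R+LE cultures received 100 ng/mL RANKL together with 10 μg/mL LE. The labels name 48-well plates and C57BL/6 mice with an age of 6 to 8 weeks, whereas male ICR mice and 6-well plates are named in the methods of the study. Neither source says whether the libraries of a condition came from separate cultures or animals, so p-values measure only the spread between these libraries, which may be technical.

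NDRG proteins have the fold of the α/β hydrolases but lack the residues needed for hydrolase activity, and they act in growth control, differentiation and stress responses. NDRG1, the founding member, is repressed by MYC proteins, induced by hypoxia and phosphorylated by SGK1 and then GSK3. NDRG2 is known as a growth-restraining protein that is abundant in astrocytes, heart and muscle, NDRG3 is known as a protein that accumulates with lactate under low oxygen, and NDRG4 is known mainly from brain and heart.

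The levels are RPKM, which scales reads to the length of the transcript in kilobases and to 1000000 mapped reads, so they can be compared between genes. The libraries held 29390211 to 34846374 mapped reads, of which 74.2% to 80.7% lay on genes. The ribosomal precursor entry Rn45s took 4.97% to 13.5% of the reads on genes and was lower in both -R libraries than in the other 4. Markers of the labelled cell type were present. All 8 macrophage markers exceeded 1 RPKM in at least 1 library, with summed levels of 6732 to 7319 RPKM in -R, of 2692 to 3455 in +R, and of 3764 to 4206 in R+LE. Lyz2 was the largest part of each sum, with means of 5317, 2132 and 3060 RPKM in that order. Itgam alone had higher means with RANKL, at 70.5, 90.2 and 104 RPKM. From +R to R+LE, Csf1r (206 to 185) and Cd68 (445 to 336) had lower means, and the other macrophage markers had higher means. The 9 osteoclast markers summed to 43.4 to 45.0 RPKM in -R, 1894 to 2161 in +R and 340 to 393 in R+LE. Neutrophil markers summed to at least 15.6 RPKM in -R and to at most 2.53 RPKM elsewhere, and stromal and osteoblast markers to 8.67 to 16.7 RPKM over all libraries. Summed levels were at most 1.96 RPKM for B cell markers, 0.615 for erythroid, 0.245 for T and NK cell and 0.082 for mast cell markers. In such bulk samples, fewer cells of a type and less RNA per cell cannot be told apart. The part of these marker levels in the differences of the NDRG genes was not tested.

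The members are separate genes on 4 chromosomes. In the mm10 (GRCm38) build, the counted transcript of Ndrg1 (NM_008681, 2872 nt) lies at chr15:66929318-66969641, that of Ndrg2 (NM_001360271, 1965 nt) at chr14:51905271-51912328 and that of Ndrg3 (NM_001355394, 2563 nt) at chr2:156927342-156992111, all on the minus strand. That of Ndrg4 (NM_145602, 2911 nt) lies on the plus strand at chr8:95703037-95715119. The coding sequences of 1182, 1113, 1164 and 1212 bases, in that order, were alike in length. Between members, 64.5% (Ndrg2 and Ndrg3) to 69.8% (Ndrg1 and Ndrg4) of the aligned coding bases were identical. The stretch with the most bases shared by all 4 is shown because it bears on whether reads could be assigned to the wrong member. It is a window of 60 coding bases in exons 14 and 15 of each gene, of which 43 are identical in all 4 members and are printed in capitals. Its ends lie at chr15:66933864-66936260, chr14:51906513-51906697, chr2:156931216-156931437 and chr8:95710962-95711144 for Ndrg1 to Ndrg4, each with an intron between the exons.
Ndrg1: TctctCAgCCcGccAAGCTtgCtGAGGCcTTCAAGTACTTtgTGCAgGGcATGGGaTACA
Ndrg2: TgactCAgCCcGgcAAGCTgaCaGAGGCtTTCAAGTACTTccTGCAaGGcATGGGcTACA
Ndrg3: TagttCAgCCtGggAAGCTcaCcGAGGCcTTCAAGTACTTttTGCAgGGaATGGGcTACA
Ndrg4: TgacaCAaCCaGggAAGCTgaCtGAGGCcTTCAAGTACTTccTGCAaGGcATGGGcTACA

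Of stretches of 25 bases in the transcripts, 9 were shared by Ndrg2 and Ndrg4 and none by the other 5 pairs, against reads of 100 bp. The share of each member's stretches that also occurred in genes outside the family was 0.518% for Ndrg1, 0.523% for Ndrg2, 4.43% for Ndrg3 and 0.0603% for Ndrg4. Reads were counted without regard to strand. Of the 6596 bp in exons of all annotated Ndrg1 transcripts, 419 bp overlap the opposite-strand gene Gm17035 and 137 bp overlap Gm2895. Reads counted there could not be told from theirs. Whether these overlaps lie in the counted transcript was not checked. No exon of Ndrg2, Ndrg3 or Ndrg4 overlapped another gene.

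Promoter windows from RefSeq, 250 bases before to 50 after a start site on GRCm38.p6, were given for 9 start sites of Ndrg2, Ndrg3 and Ndrg4. Windows of Ndrg2 and Ndrg4 are shown because the levels of both were higher in +R than in -R. For Ndrg2, the window at chr14:51913955-51914254 (minus strand) held 2 matches to the NFAT core GGAAA, searched on both strands and printed in capitals as their reverse complement. NFATc1 is the main transcription factor of osteoclast formation, but 61.3% of all 32851 promoter windows hold this short motif.
Ndrg2: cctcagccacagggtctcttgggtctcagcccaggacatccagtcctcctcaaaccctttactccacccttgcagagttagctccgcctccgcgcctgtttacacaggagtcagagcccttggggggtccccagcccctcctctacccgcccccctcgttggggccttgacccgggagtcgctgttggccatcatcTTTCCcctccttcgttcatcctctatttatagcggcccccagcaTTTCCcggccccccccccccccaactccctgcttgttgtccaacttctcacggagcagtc

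The start sites listed for Ndrg2 lie 1001 to 1676 bp upstream of the start of the counted transcript. The table thus did not use the first exons of these longer forms. The window shown is of the farthest site, and the other Ndrg2 windows, including the nearest, held no NFAT match. For Ndrg4, the window at chr8:95677513-95677812 (plus strand) held the E-box CACGTG, the motif bound by MYC and MAX, which is in 7.15% of all windows and is printed in capitals. It overlaps the core ACGTG of the hypoxia-response element, found in 19.6% of windows.
Ndrg4: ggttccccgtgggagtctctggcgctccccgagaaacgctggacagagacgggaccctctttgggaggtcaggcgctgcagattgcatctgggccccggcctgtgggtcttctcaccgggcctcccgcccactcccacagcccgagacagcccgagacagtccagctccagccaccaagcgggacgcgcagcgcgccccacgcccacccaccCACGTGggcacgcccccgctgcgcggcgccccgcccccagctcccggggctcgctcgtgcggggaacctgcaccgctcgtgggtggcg

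This Ndrg4 start site lies 25274 bp upstream of the counted transcript, and the window of the nearest listed start, 19 bp away, held neither motif. The antioxidant response core TGACNNNGC, in 12.4% of windows, had 1 match in another Ndrg2 window and 1 in each of 2 other Ndrg4 windows. The AP-1 motif TGACTCA, in 5.20% of windows, was in none of the 9, and neither window of Ndrg3 held any of the motifs searched. The matches describe letters only.

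Ndrg2 was the member with the widest range of levels. It was at 0.035 and 0.102 RPKM in -R, at 3.697 and 1.144 in +R, and at 8.092 and 8.941 in R+LE. The conditions did not overlap, with the lowest levels without RANKL and the highest with RANKL and LE. Of all genes tested, 40.3% lay higher without overlap in +R than in -R. In R+LE, 19.5% did so over +R and 31.2% over -R. The low values rested on 2 and 7 reads, with exact Poisson 95% intervals of 0.242 to 7.22 and 2.81 to 14.4 reads, against 223 and 69 reads in +R and 502 and 535 in R+LE. In -R, the level of 1 library lay below that of 3 reads, the limit that a count of 0 allows, which was 0.0438 to 0.0519 RPKM for Ndrg2 over the libraries. Intervals and limits cover counting error only.

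Summed over both libraries and scaled to depth, Ndrg2 reads were 33.9 times as many in +R as in -R (95% counting interval 17.6 to 75.0). In R+LE they were 3.52 times as many as in +R (3.09 to 4.02). These intervals leave out the spread between libraries, which was wide in +R (223 and 69 reads), and are not a test. On the log2(RPKM + 0.5) scale, which understates changes of low levels, the differences were 2.21 for +R over -R, 1.78 for R+LE over +R and 3.99 for R+LE over -R. The +R libraries were unlike each other, and without replicate 1 of +R the steps were 1.53 and 2.45, whereas without replicate 2 they were 2.89 and 1.10. The sizes of the steps thus moved with the library used. Their direction could not turn when 1 library was left out, since the conditions did not overlap. Ndrg2 passed the expression filter, an average of 0.5 RPKM or more across all 6 libraries, only through +R and R+LE. The other 3 members had a mean above 0.5 RPKM in each condition.

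**Figure D1:**
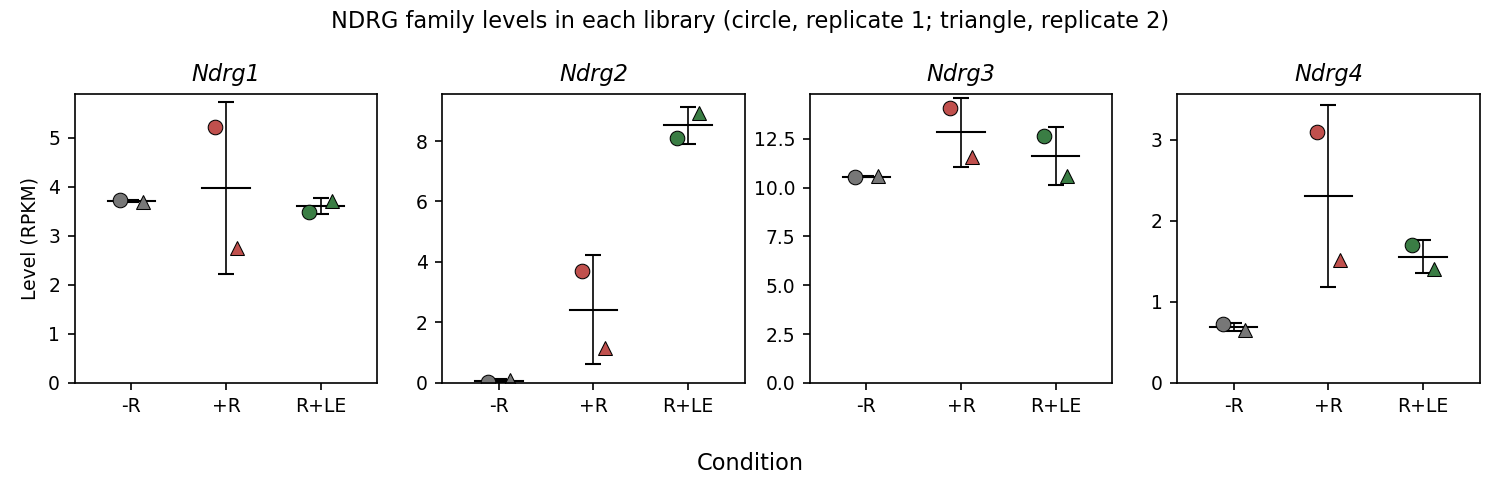
Levels of the 4 members in RPKM (vertical axis, from 0, a separate scale for each gene) by condition (horizontal axis). Each symbol is 1 library, the horizontal line is the mean and the bar is the SD (n = 2). Ndrg2 is near 0 in -R and above 8 RPKM in R+LE, and replicate 1 of +R is above replicate 2 for each gene.

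Of the 3 members tested, Ndrg4 was higher with RANKL than without it. It was at 0.725 and 0.651 RPKM in -R, at 3.100 and 1.510 in +R, and at 1.698 and 1.410 in R+LE, from 62 to 277 reads. Both +R and both R+LE libraries lay above both -R libraries, and those of +R and R+LE overlapped. Group means were 0.688 ± 0.0523 (SD, n = 2), 2.31 ± 1.12 and 1.55 ± 0.204 RPKM. All 11595 genes that passed the filter were fitted together with limma, and a gene was called at a Benjamini-Hochberg adjusted p below 0.05 and a change of at least 2-fold. In +R over -R, Ndrg4 rose by 1.18 on the log2 scale (SE 0.24, 95% interval 0.67 to 1.69, limma adjusted p = 0.000868). The rise was 0.76 without replicate 1 of +R (limma adjusted p = 0.0170), which is under 2-fold and ends the call, and 1.60 without replicate 2. With a pseudocount of 1 it was 0.93, also under 2-fold. Over -R, the difference in R+LE was 0.79 (SE 0.24, interval 0.28 to 1.30, limma adjusted p = 0.0186), below 2-fold and so not called. In R+LE over +R it was -0.39 (interval -0.90 to 0.12, limma adjusted p = 0.369). That difference was 0.03 without replicate 1 of +R and -0.81 without replicate 2.

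Ndrg1, the hypoxia-induced member, had like means in the 3 conditions. It was at 3.732 and 3.697 RPKM in -R, at 5.217 and 2.744 in +R, and at 3.485 and 3.716 in R+LE, from 242 to 460 reads. The +R libraries were the highest and the lowest of all 6 and enclosed the other 4. Group means were 3.71 ± 0.0247 (SD, n = 2), 3.98 ± 1.75 and 3.60 ± 0.163 RPKM. The log2 differences were 0.03 for +R over -R (interval -0.41 to 0.47, limma adjusted p = 0.916), -0.07 for R+LE over +R (-0.51 to 0.37, 0.900) and -0.04 for R+LE over -R (-0.48 to 0.40, 0.904). In each comparison a change of 2-fold lay outside the interval, but the estimate for +R over -R was -0.38 without replicate 1 of +R and 0.44 without replicate 2.

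Ndrg3 was the most abundant member in every library. It was at 10.541 and 10.581 RPKM in -R, at 14.082 and 11.576 in +R, and at 12.656 and 10.583 in R+LE, from 794 to 1108 reads. Both +R libraries and both R+LE libraries lay above both -R libraries, R+LE replicate 2 only narrowly, and +R and R+LE overlapped. Group means were 10.6 ± 0.0283 (SD, n = 2), 12.8 ± 1.77 and 11.6 ± 1.47 RPKM. The log2 difference was 0.26 for +R over -R (SE 0.15, interval -0.05 to 0.58, limma adjusted p = 0.162). It was -0.14 for R+LE over +R (-0.45 to 0.18, 0.673) and 0.13 for R+LE over -R (-0.19 to 0.44, 0.544), again with 2-fold outside each interval.

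Of Ndrg1, Ndrg3 and Ndrg4, 1 was thus called in +R against -R, where 15.5% of all genes tested were called in either direction, 6.58% as higher and 8.92% as lower. None of the 3 was called in R+LE against +R, where 3.23% of genes were (1.46% higher and 1.78% lower), or in R+LE against -R, where 10.3% were (3.92% higher and 6.36% lower). At an unadjusted limma p under 0.05, 0 of the 3 passed in R+LE against +R and 1, Ndrg4, in R+LE against -R, where 23.3% and 43.5% of all genes tested did. With voom, limma's method for read counts, on reads recovered from the RPKM values, 0 and 1 were called, again Ndrg4, where 4.48% and 12.8% of all genes were. Groups that do not overlap were common over all genes, where 40.3% lay higher in +R than in -R without overlap, and 31.2% lay higher in R+LE than in -R. For 1 gene, an exact two-sided permutation test of 2 libraries against 2 cannot go below p = 0.333, so calls rest on the spread shared between genes.

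**Figure D2:**
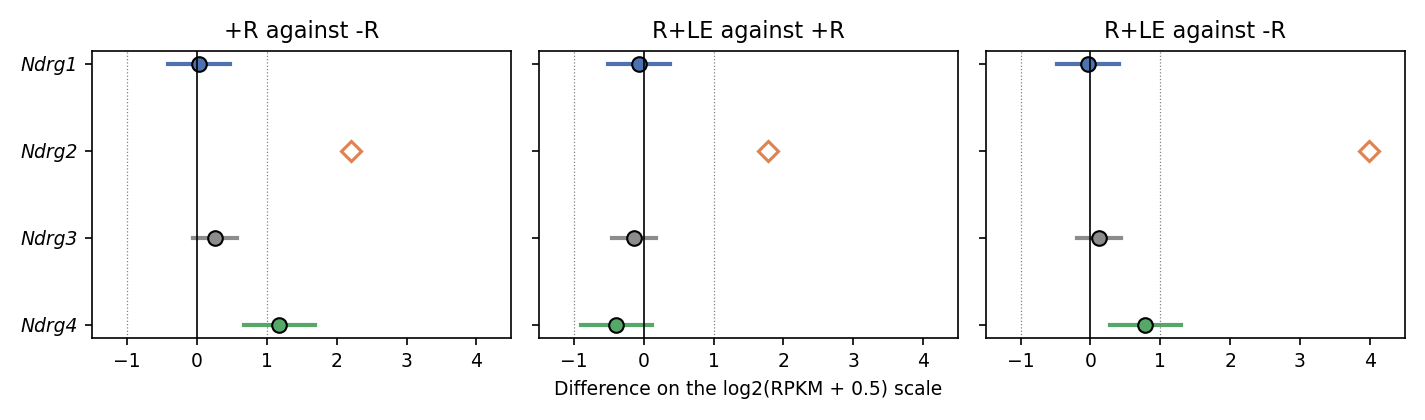
Differences of the group means on the log2(RPKM + 0.5) scale (horizontal axis) for each member (vertical axis) in the 3 comparisons. Circles with lines are limma estimates with 95% intervals, open diamonds are the differences of Ndrg2, shown without a test, and dotted lines mark 2-fold. For Ndrg1 and Ndrg3 every interval includes 0, and the interval of Ndrg4 lies above 0 in both comparisons with -R.

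The order of the members changed with the condition. In -R it was Ndrg3, Ndrg1, Ndrg4 and Ndrg2, without overlap between neighbours. In +R, Ndrg3 again stood alone at the top, while Ndrg1, Ndrg2 and Ndrg4 overlapped. In R+LE the order was Ndrg3, Ndrg2, Ndrg1 and Ndrg4, without overlap. Ndrg2 thus went from last in -R to the second place in R+LE. Among all genes tested, its mean level stood at the 0.431 percentile in -R, the 21.4 percentile in +R and the 52.8 percentile in R+LE. Ndrg3 stood at the 57.9, 63.8 and 62.1 percentiles, Ndrg1 at 29.9, 31.4 and 30.0, and Ndrg4 at 5.30, 20.6 and 14.8.

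The summed level of the 4 members stood at 15.033 and 15.031 RPKM in -R, at 26.096 and 16.974 in +R, and at 25.931 and 24.650 in R+LE. The sum was higher in R+LE than in -R in every library, and the +R libraries spanned most of the distance between them. The mean share of Ndrg3 was 70.3% in -R, then 61.1% in +R, and 45.9% in R+LE. Ndrg2 held 0.456%, 10.5% and 33.7% in the same order, Ndrg1 24.7%, 18.1% and 14.3%, and Ndrg4 4.58%, 10.4% and 6.13%. The make-up of the sum includes Ndrg2, for which the family was chosen, and is a description.

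**Figure D3:**
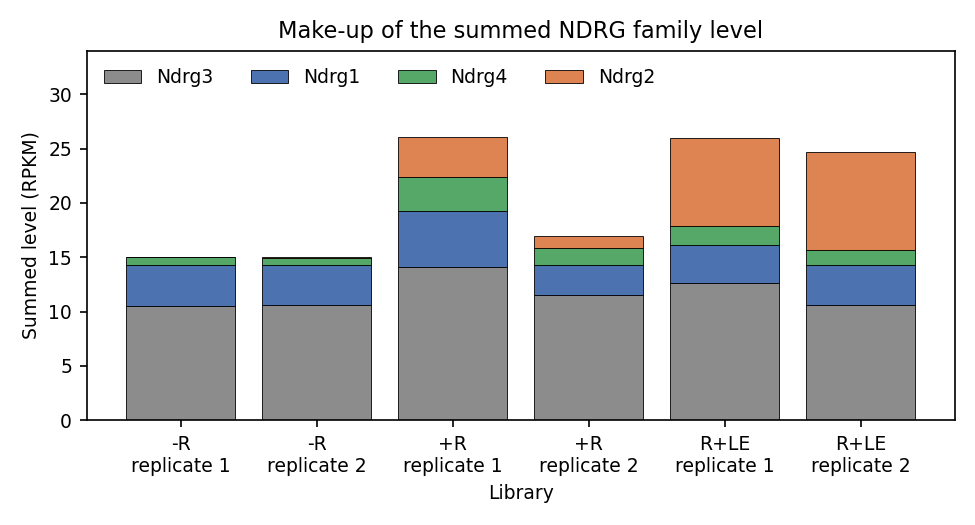
Summed level of the 4 members in RPKM (vertical axis, from 0) in each library (horizontal axis), stacked by gene. The Ndrg2 part is too thin to see in -R and takes 31.2% and 36.3% of the bar in the R+LE libraries.

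The +R libraries differed from each other by more than for most genes in 3 of the members. The RPKM in replicate 1 was 1.90 times that in replicate 2 for Ndrg1, 3.23 times for Ndrg2, 1.22 times for Ndrg3 and 2.05 times for Ndrg4. On the log2 scale, a gap at least as wide in either direction was found in 1.16% of genes tested for Ndrg1, 0.379% for Ndrg2, 20.1% for Ndrg3 and 1.07% for Ndrg4. Over all genes, 65.3% were higher in +R replicate 1, with a median gap of 0.08 log2. In R+LE the ratios of the members were 0.938, 0.905, 1.20 and 1.20, and in -R they were near 1 apart from Ndrg2, which rested on few reads there. Members thus shared the direction of the gap in +R, and a value from the +R libraries depends on which of them is used.

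**Figure D4:**
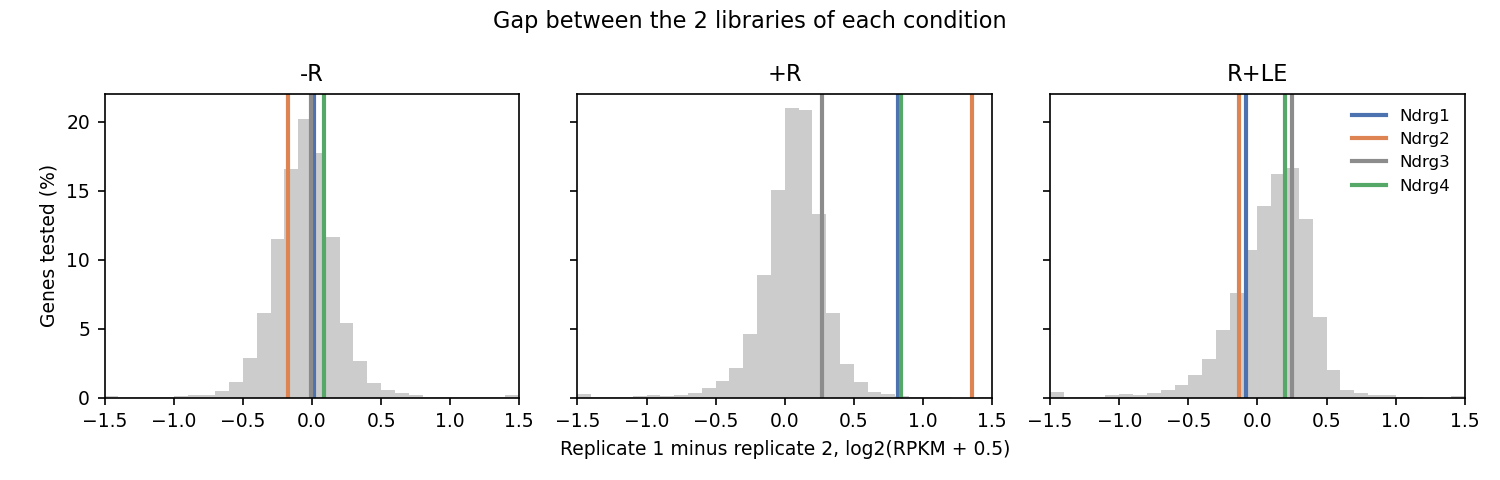
Replicate 1 minus replicate 2 on the log2(RPKM + 0.5) scale (horizontal axis) in each condition, as a histogram of the 11595 genes tested (vertical axis, percent of genes, with values beyond the axis put in the end bins). Coloured lines mark the members. In +R, the lines of Ndrg1, Ndrg2 and Ndrg4 lie in the right tail, at ratios of 1.90, 3.23 and 2.05.

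Across the 6 libraries, Pearson's r of log2(RPKM + 0.5) between members was 0.898 for Ndrg3 and Ndrg4, 0.705 for Ndrg2 and Ndrg4, 0.507 for Ndrg1 and Ndrg3, 0.480 for Ndrg2 and Ndrg3, 0.453 for Ndrg1 and Ndrg4, and 0.171 for Ndrg1 and Ndrg2. These 6 points share 3 conditions and the gap between the +R libraries, and the values are descriptions. By the same measure, the genes whose pattern was most like that of Ndrg2, of 3037 genes with a range of at least 1 log2 unit, were Tmem26 (r = 0.997), Rbfox1 (0.992), Cacng8 (0.991), F11r (0.988) and Clec5a (0.987). In R+LE over +R, the genes other than Cacng8 differed by 0.46 (Clec5a) to 0.81 log2 (F11r), under 2-fold. Cacng8, a calcium channel subunit gene, had the widest difference of them there, at 1.48 log2, and is not typical of the list. It was at 0.352 and 0.712 RPKM in -R, at 3.729 and 2.291 in +R, and at 8.170 and 10.078 in R+LE. For Ndrg4 they were Kyat3 (0.998), the hypoxia-inducible adenylate kinase gene Ak4 (0.995), Tspan5 (0.992), the 53-nt entry Mir7219 (0.989) and Nudcd1 (0.975). Ak4 was at 0.457 and 0.414 RPKM in -R, at 2.364 and 1.132 in +R, and at 1.275 and 1.188 in R+LE, close to the levels of Ndrg4. For Ndrg3, over all genes tested, they were Ptrhd1, Edc3, 2610001J05Rik, Mipep and Mrps17 (0.987 to 0.995), and for Ndrg1 Zbtb42, Pym1, Ccar2, Eif1b and Nmt2 (0.946 to 0.987). None of these genes most like Ndrg1 was called in +R against -R, R+LE against +R or R+LE against -R. Of all genes tested, 15.5%, 3.23% and 10.3% were. The genes like Ndrg1 were picked for that pattern, and Ndrg1 itself was not called, so their lack of calls is no separate result.

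Of the 8 genes next to the members on their chromosomes, 4 were tested. None was called in +R against -R, where 15.5% of all genes tested were. Beside Ndrg2, Slc39a2 was at most at 0.160 RPKM and Tppp2 was at 0 in every library. Beside Ndrg1, Wisp1 was at 0.104 to 0.251 RPKM, and St3gal1 was higher in +R than in -R by 0.85 log2 (limma adjusted p = 0.000164, under 2-fold). Beside Ndrg3, Sla2 was at 0.045 to 0.305 RPKM, and Dsn1, 2951 bp away, was higher in +R by 0.85 log2 (limma adjusted p = 0.000339, under 2-fold). Beside Ndrg4, Gins3 differed by 0.36 log2 (limma adjusted p = 0.0944) and Setd6, 794 bp away, by -0.10 (0.588).

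Regulators and companions of the family were taken from lists of genes of the same pathways. In the MYC network, whose MYC proteins repress Ndrg1 and Ndrg2 in other cells, 11 of 13 genes were tested. In +R against -R, 1 rose and none fell, or 9.09% called against 15.5% of all genes tested. The median was 0.17 log2 against 0.05 for all genes. The riser was Mycl, from 0.041 and 0.157 RPKM in -R to 12.838 and 9.505 in +R and to 11.638 and 10.651 in R+LE. Its log2 change was 4.28 in +R and 4.29 in R+LE over -R (SE 0.17 for both), and 0.01 in R+LE over +R. Myc was at 24.562 and 26.297 RPKM in -R, at 48.608 and 46.310 in +R, and at 42.831 and 45.021 in R+LE. The difference of Myc in +R over -R, 0.89 log2, had a limma adjusted p of 8.08e-05 but was under 2-fold. Mycn, after which the family is named, was at most at 0.026 RPKM and was not tested. Ndrg2 and Mycl were thus both near 0 without RANKL, and the Mycl level in R+LE lay within its range in +R.

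Of 20 hypoxia-inducible genes, 18 were tested, and in +R against -R they split, with 3 that rose and 3 that fell. That is 33.3% called against 15.5% of all genes tested, and the median was 0.27 log2. Without replicate 1 of +R the median was 0.11 log2, against 0.01 for all genes. Without replicate 2 of +R it was 0.48, against 0.07. With a pseudocount of 1, 2 of the 18 rose and 1 fell, where 625 and 893 of all 11595 genes tested did. Pdk1, which restrains entry of pyruvate into mitochondria, rose by 1.55 log2, Ankrd37 by 1.28 and Ak4 by 1.21. The +R libraries of Ak4 were at 2.364 and 1.132 RPKM, so the size of its rise depends on the library. Pfkfb3 fell by 1.29 and Pfkfb4 fell by 1.01, both enzymes that set glycolytic flux, and the collagen hydroxylase gene P4ha2 fell by 1.06. Pdk1 was also called higher in R+LE than in -R (1.16), while Pfkfb3 (-1.24), the angiogenic factor gene Vegfa (-1.13) and Pfkfb4 (-1.07) were called lower. That is 22.2% called against 10.3% of all genes tested. Of 8 HIF pathway regulators, 6 were tested. With RANKL, with LE added to RANKL and with both over neither, limma called 0, as did voom. Limma called 15.5%, 3.23% and 10.3% of all genes tested there, and voom called 18.4%, 4.48% and 12.8%. In the same order, 3, 1 and 2 regulators had an unadjusted limma p under 0.05. That is 50%, 16.7% and 33.3%, against 52.1%, 23.3% and 43.5% of all genes tested. Hif1a, the oxygen-regulated HIF subunit, was at 29.467 and 32.055 RPKM in -R, at 19.143 and 17.643 in +R, and at 26.752 and 23.349 in R+LE. Its difference in +R over -R was -0.73 log2 (limma adjusted p = 0.000599, under 2-fold), and in R+LE over +R it was 0.43 (0.0590). Ndrg1, itself hypoxia-inducible, had no call in any comparison.

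Of 17 genes for the SGK, AKT and GSK3 kinases and mTORC2, which act on NDRG proteins, 14 were tested. In +R against -R, 1 rose and 1 fell, or 14.3% called against 15.5% of all genes tested. The median was -0.07 log2. Sgk1, the kinase known for phosphorylating NDRG1, fell from 28.589 and 31.249 RPKM in -R to 8.514 and 7.365 in +R, and was at 12.795 and 9.552 in R+LE. Its log2 change was -1.85 in +R and -1.39 in R+LE over -R (SE 0.16 for both). Deptor, an inhibitor of mTOR complexes, rose from 1.052 and 1.244 RPKM in -R to 5.444 and 6.339 in +R and was at 3.376 and 4.104 in R+LE. Its log2 change was 1.95 in +R and 1.36 in R+LE over -R. Gsk3a differed by -0.15 log2 in +R over -R (limma adjusted p = 0.400) and Gsk3b by -0.57 (0.00362, under 2-fold). Between R+LE and +R, 0 of the 49 genes tested in these 4 lists were called by limma, against 3.23% of all genes tested. An unadjusted limma p under 0.05 was found for 11, or 22.4% against 23.3% of all genes tested. With voom 0 of the 49 were called, where 4.48% of all genes tested were. Phosphorylation of NDRG proteins was not measured.

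**Figure D5:**
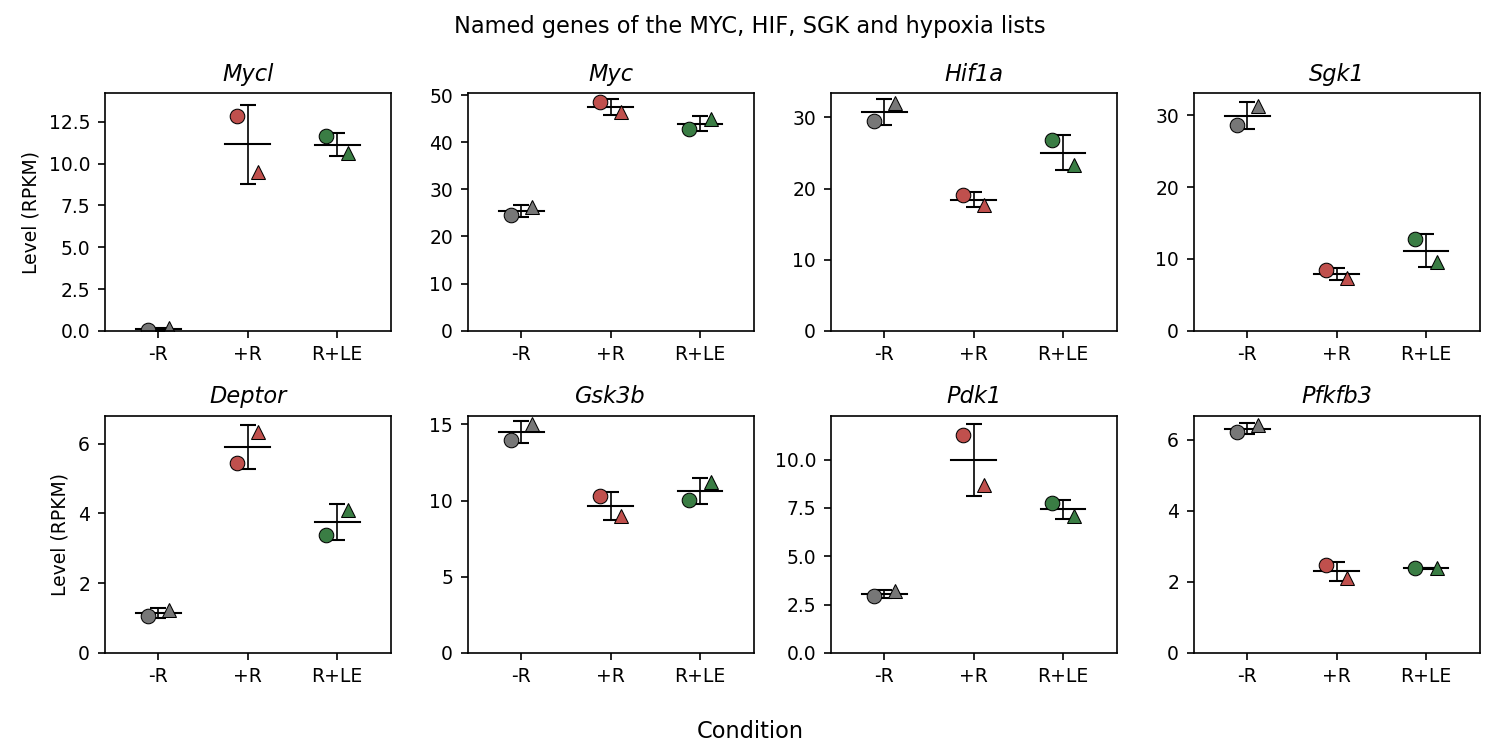
Levels in RPKM (vertical axis, from 0, a separate scale for each gene) by condition (horizontal axis) for 8 named genes of the MYC, HIF, SGK and hypoxia lists. Each symbol is 1 library (circle, replicate 1 and triangle, replicate 2), the line is the mean and the bar is the SD (n = 2). Mycl is near 0 in -R and above 9 RPKM in every other library, and Sgk1 is at least 28.589 RPKM in -R and at most 12.795 elsewhere.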

How the data were processed

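RNA-seq was performed in 6 libraries of mouse BMMs, 2 for each of the 3 conditions, grouped by the condition and replicate number in the sample titles. The authors deposited RPKM values for 24940 genes, made from mm10 alignments with HOMER counting on either strand and 1 transcript per gene. The methods of the study name TopHat and the submitters' processing notes name HISAT2, without versions, and notes also name DESeq2. Column titles call the unit FPKM. Of the symbols, 26 had become dates, and all 26 were restored from transcript identifiers.

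The deposited RPKM values fell on whole-read steps (within 0.1 read), which gave the depth. For limma 3.58.1 (R 4.3.3), log2(RPKM + 0.5) was fitted for 11595 genes, those averaging 0.5 RPKM or more, over the 3 groups, with a variance trend and Benjamini-Hochberg adjustment. The fit was tested on simulated data. Python 3.11.15 was used otherwise, with scipy 1.17.1 for counting intervals. Coding sequences and windows came from GENCODE and RefSeq tables of GRCm38.

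The members and lists were chosen with earlier results of these data known. Named genes are the members, at most 4 called genes per list and comparison, genes tied directly to the family, the nearest gene on each side and the 5 genes with the most similar pattern. Hilpda, Abhd17a and single macrophage markers were named after their values were seen. Alternatives were other pseudocounts, filters, scalings and fits, the replicate number as a block, limma's voom with TMM scaling on the recovered reads, and each library left out.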

Additional observations from a re-analysis of the deposited data

How the results depend on the processing

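Over 18 results and 17 alternatives, 281 of 306 values were rated as kept. For a tested member this meant its direction and call, and for Ndrg2 its direction and its size within the spread. A count of called genes needed only a like number. In +R against -R, 8 list genes called with a pseudocount of 1 against 12 were rated as kept. Filters, the variance trend and the replicate block cannot change a difference of group means, so the total overstates robustness. The call of Ndrg4 in +R against -R was lost with a pseudocount of 1 (0.93 log2, 0 members called) and without replicate 1 of +R. When each library was left out in turn, that change ranged from 0.76 to 1.60, with 0 to 1 members called. In R+LE against -R, Ndrg4 was called with a pseudocount of 0.1 (1.07 log2, 1 member called) and with voom (1.19 log2, 1 member called). For R+LE against +R, the difference of Ndrg4 ranged from -0.81 to 0.0277 when libraries were left out. The estimate of Ndrg1 in +R against -R was -0.000207 with voom and ranged from -0.38 to 0.44 when libraries were left out, and in R+LE against +R it ranged from -0.48 to 0.34. In R+LE against -R it was 0.0142 with median centring, 0.00312 with quantile normalization and 0.0270 with Rn45s left out of the depth, and ranged from -0.0808 to 0.000526 without 1 library. The difference of Ndrg2 in +R against -R was 3.72 with a pseudocount of 0.1 and 4.85 with voom. Between R+LE and -R it was 5.70 with a pseudocount of 0.1, 3.15 with a pseudocount of 1, 3.81 with quantile normalization, 4.12 with Rn45s left out and 6.92 with voom. The direction of Ndrg2 was the same under each. This adds no support, since the family was chosen by that direction and the conditions did not overlap. Of the 67 genes tested in the 5 pathway lists together, 1 was called in R+LE against +R with voom, where 4.48% of all genes tested were. Leaving out 1 library leaves that condition with 1, which is assumed to vary like the others.

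No pairing by replicate number was assumed. The deviations of same-numbered libraries had r = -0.05 for -R and +R, 0.107 for -R and R+LE and 0.249 for +R and R+LE over 11595 genes. Whether same-numbered libraries belong together cannot be told from these values. With the replicate block, Ndrg4 in +R against -R stayed at 1.18 log2 (limma adjusted p = 1.41e-05), and 1, 0 and 0 members were called in the 3 comparisons. The depth limits Ndrg2 in -R, at 2 and 7 reads.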

Other observations

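Genes of the α/β hydrolase domain family proper, whose fold the NDRG proteins share, were measured as well. Of 19 genes, 18 were tested, and in +R against -R 1 rose and 2 fell, or 16.7% called against 15.5% of all genes tested, with a median of 0.09 log2 against 0.05 for all genes. With voom, 5 were called, or 27.8% against 18.4% of all genes. Abhd12, the lysophosphatidylserine lipase gene, was the most abundant of the tested members in -R and R+LE. In +R that was Abhd17a, at 38.195 and 41.520 RPKM. Abhd12 was at 129.563 and 114.716 RPKM in -R, at 27.000 and 27.011 in +R, and at 47.157 and 39.096 in R+LE. It fell by 2.15 log2 in +R over -R and was 0.66 higher in R+LE than in +R (limma adjusted p = 0.00822, under 2-fold). Abhd15 fell by 1.52 log2, from 2.464 and 2.476 RPKM in -R to 0.652 and 0.432 in +R, and was at 0.605 and 0.567 in R+LE. Abhd14a rose by 1.16 log2, from 1.535 and 0.971 RPKM to 3.153 and 3.612, and was at 3.275 and 2.376 in R+LE. With LE added to RANKL, limma called 0 of the 18, against 3.23% of all genes tested. An unadjusted limma p under 0.05 was found for 5, or 27.8% against 23.3% of all genes tested. Voom called 1, or 5.56% against 4.48%. Abhd12 (-1.49) and Abhd15 (-1.45) had lower levels that were called for R+LE over -R, or 11.1% called against 10.3% of all genes tested.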
